A study of Mus musculus with 12 samples.

Results

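Pax genes encode transcription factors that bind DNA through a paired domain. Levels of Pax messenger RNA were measured in mouse embryonic stem (ES) cells that lacked Ring1B, Eed, both or neither, and were taken from every probe set whose gene symbol in the platform annotation was Pax1, Pax2, Pax3, Pax5, Pax6, Pax7, Pax8 or Pax9. The rule found 19 of 45037 non-control probe sets, which read 7 of the 8 genes, among 18193 genes named on the array. Pax2 was not analysed here. Pax6, by its brightest probe set, was lower than wild type in every mutant genotype. Of the 3 Pax3 probe sets 1 was called higher in Ring1B deficient, 2 in Eed deficient and all 3 in double deficient cells. Pax1 and 1 Pax9 probe set were higher than wild type in double deficient cells, 1 Pax5 probe set was higher in double deficient than in Ring1B deficient cells, and Pax7 and Pax8 had no called difference. The called Pax9 probe set was dim, and the brightest Pax9 probe set was not called.

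The study compared 4 genotypes with 3 biological replicates each, 12 Affymetrix arrays in all. The groups were wild type ES cells, Ring1B deficient cells made by gene targeting, Eed deficient cells made by gene targeting, and double deficient cells in which Ring1B was targeted in Eed deficient ES cells. The sources used here do not give the number of independent lines behind each genotype, so a difference between genotypes and a difference between lines cannot be told apart. Nor do they give culture conditions. The undifferentiated state was judged by colony form before RNA was taken.

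Ring1B, encoded by Rnf2, is the main ubiquitin ligase of Polycomb repressive complex 1, and Eed is a core subunit of Polycomb repressive complex 2, which methylates histone H3. Both complexes keep genes of later development low in ES cells, and Pax genes are among the developmental regulators that they are known to bind there. In the embryo Pax genes act in separate tissues. Pax6 acts in the eye, forebrain and endocrine pancreas, Pax3 and Pax7 in the dorsal neural tube, neural crest and muscle precursors, Pax1 and Pax9 in the sclerotome and pharyngeal pouches, Pax8 in the thyroid and kidney, and Pax5 in B lymphocytes and the midbrain.

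The targeted genes were read first, as a check of the labels. The brighter Eed probe set ran from 1248 to 1547 in wild type and from 1463 to 1969 in Ring1B deficient arrays, and from 25 to 51.1 and 47.5 to 87.1 in Eed deficient and double deficient arrays. The brightest Rnf2 probe set ran from 777 to 994 in wild type, 398 to 529 in Ring1B deficient, 679 to 973 in Eed deficient and 362 to 399 in double deficient arrays, so it fell in part (log2 -0.86, adjusted p = 0.0123 with Ring1B loss alone). A second bright Rnf2 probe set fell too, from 632 ± 74.6 to 330 ± 23.1 in Ring1B deficient cells (-0.92, adjusted p = 0.00405). A dimmer one went the other way, from 29.9 ± 7.02 to 60.2 ± 8.27 in Ring1B deficient cells (0.91, adjusted p = 0.0279). The remaining Rnf2 probe sets were not called. Which part of the gene was deleted is not stated in the labels. Array medians lay between 19.07 and 28.01 signal units. The median log2 difference of all probe sets between double deficient and wild type cells was 0.116, and 0.120 between double deficient and Ring1B deficient cells, and the values below include it. Of all probe sets 4644 were called higher and 2275 lower in double deficient than in wild type cells, 2737 and 5328 with every array centred on its median, and 3438 and 3148 under quantile normalization. Between double deficient and Ring1B deficient cells the split was 2627 higher and 1065 lower, 1351 and 3062 with median centring, and 1710 and 1363 under quantile normalization. Between double deficient and Eed deficient cells it was 168 and 112, against 113 and 323 and 125 and 148, and between Eed deficient and wild type cells it was 1924 and 751, against 1455 and 991 and 1707 and 873.

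Pax signals were low. The 40th percentile of an array, used here as a mark of the dim range, lay between 12.1 and 19.07, and 2 of the 19 probe sets, one of Pax6 and one of Pax9, were above it on all 12 arrays. Of the 19, 11 were above it on at least 3 arrays and 7 were above it on no array. Differences are log2 differences of signal plus 5, which understate the ratio of low signals. A difference was called at an adjusted p under 0.05 by limma with Benjamini-Hochberg adjustment over all 45037 probe sets, and adjusted p values below are from that fit or, where a setting or left-out array is named, from its refit. The p values set a difference between genotypes against the spread between arrays within genotypes, which limma estimates over all 4 genotypes together.

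**Figure D1:**
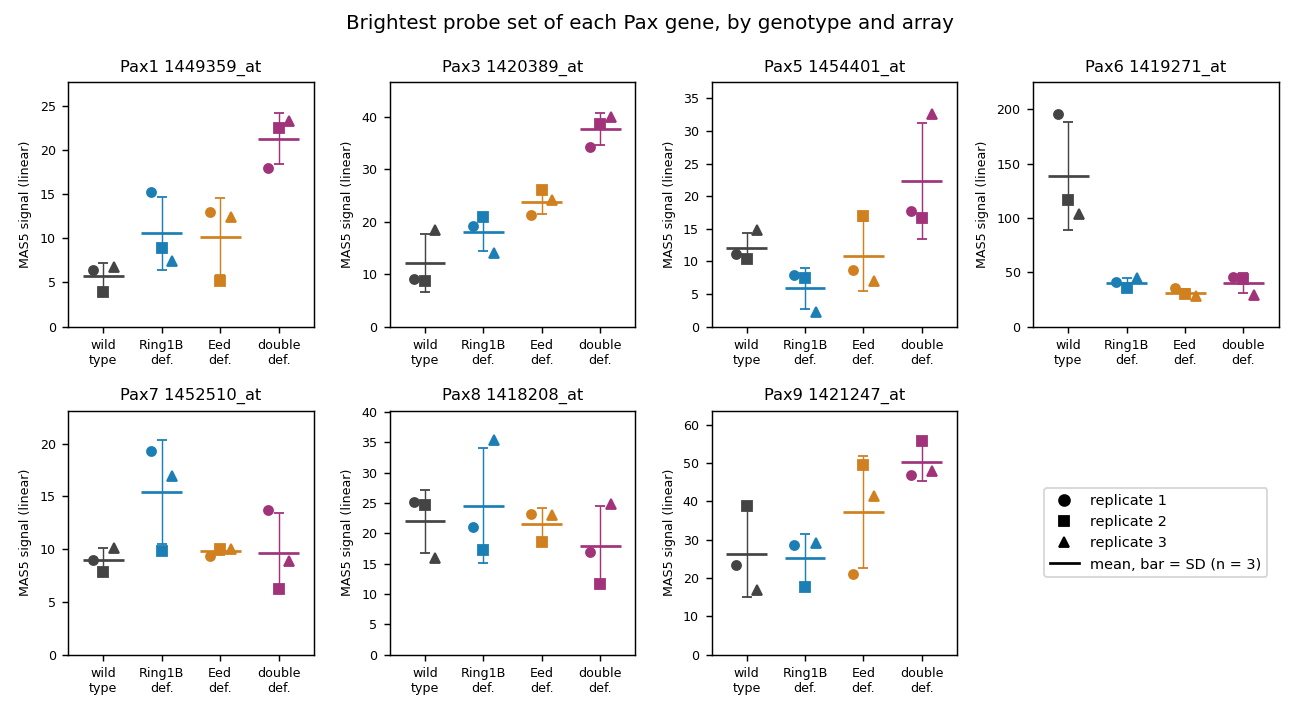
MAS5 signal (linear axis from 0) of the brightest probe set of each Pax gene on the 12 arrays, by genotype, with points for single arrays, a horizontal line for the mean and a bar for the SD (n = 3). The wild type Pax6 arrays, from 104 to 196, lie above all 9 mutant arrays, and the double deficient Pax1 and Pax3 arrays lie above all arrays of the other genotypes.

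Ring1B deficient cells had 1 of 19 Pax probe sets called higher than wild type and 2 called lower, where 1.63% and 0.793% of all probe sets were called. Eed deficient cells had 2 higher and 3 lower, where the shares of all probe sets were 4.27% and 1.67%. Double deficient cells had 5 higher and 3 lower, where the shares were 10.3% and 5.05%. The higher ones belonged to Pax3 in the single mutants and to Pax1, Pax3 and Pax9 in the double deficient cells, and all the lower ones belonged to Pax6. Probe sets of a gene share a transcript and are not independent. The median log2 difference of the 19 from wild type was -0.02, 0.09 and 0.07 in Ring1B deficient, Eed deficient and double deficient cells, beside -0.01, 0.01 and 0.12 over all probe sets.

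**Figure D2:**
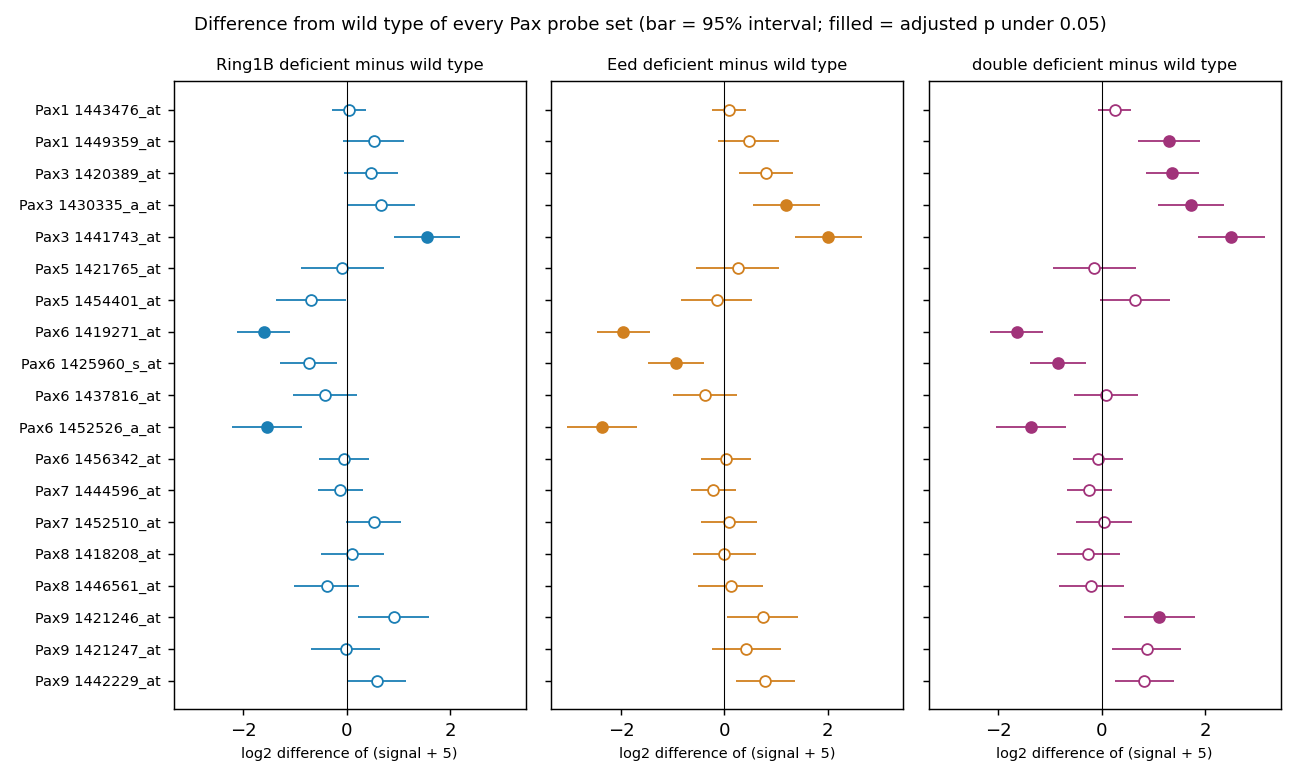
Log2 difference of signal plus 5 between each mutant genotype and wild type for all 19 Pax probe sets, with 95% intervals of the limma fit, where filled circles mark an adjusted p under 0.05. Filled circles left of 0 are Pax6 probe sets in all 3 panels, and filled circles right of 0 are Pax3 in the single mutants and Pax1, Pax3 and Pax9 in double deficient cells.

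Pax6, the regulator of eye and forebrain formation, was the brightest Pax gene on wild type arrays and fell in every mutant genotype. Its brightest probe set, 1419271_at, read 196.1, 116.5 and 104.0 on the wild type arrays. It read 40.7, 35.86 and 44.98 on the Ring1B deficient arrays. It read 35.42, 29.65 and 27.72 on the Eed deficient arrays and 46.09, 44.12 and 29.41 on the double deficient arrays. All 9 mutant arrays were below the lowest wild type array, the Eed deficient arrays lay just below the Ring1B deficient ones, and the double deficient arrays overlapped both. The means were 139 ± 49.9, 40.5 ± 4.56, 30.9 ± 4.01 and 39.9 ± 9.11 (SD, n = 3) in that order, so the mutants held 0.292, 0.223 and 0.287 times the wild type mean. All 12 arrays were above the 40th percentile, so the mutant level was low but not in the dim range.

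The log2 difference of Pax6 from wild type was -1.61 (SE 0.24, adjusted p = 0.00226) in Ring1B deficient, -1.95 (SE 0.24, adjusted p = 0.000313) in Eed deficient and -1.65 (SE 0.24, adjusted p = 0.000457) in double deficient cells. These 3 calls were made under each of the 8 alternative settings and without each of the 12 arrays. No call was made between mutant genotypes. Double deficient minus Ring1B deficient gave -0.04 (95% interval -0.55 to 0.47), double deficient minus Eed deficient gave 0.31 (-0.21 to 0.82) and Eed deficient minus Ring1B deficient gave -0.34 (-0.85 to 0.17).

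The interaction compares the effect of Ring1B loss in Eed deficient cells with its effect in wild type cells. For this Pax6 probe set it was 1.92 (SE 0.33, 95% interval 1.20 to 2.64, adjusted p = 0.0246), where 0.224% of all probe sets were called with a positive interaction and 0.324% with a negative one. Pax6 was lower by 1.61 in log2 in Ring1B deficient than in wild type cells. The difference of double deficient from Eed deficient cells was 0.31 and not called. Eed deficient cells were already low, at a mean of 30.9 against 139 in wild type. The interaction was not called under quantile normalization (adjusted p = 0.0595) or median centring (0.0555). It was also not called without Ring1B deficient replicate 1, 2 or 3 (1.92, 1.84 and 1.99, adjusted p = 0.0596, 0.0641 and 0.0503), Eed deficient replicate 2 (1.89, 0.0595) or double deficient replicate 1 or 2 (1.81 and 1.84, 0.0774 and 0.0621).

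A second Pax6 probe set, 1452526_a_at, showed the same order of wild type above mutants. It read 71.65, 46.12 and 32.59 in wild type and 11.57, 10.59 and 17.97 in Ring1B deficient arrays. It read 1.897, 7.004 and 8.095 in Eed deficient and 13.79, 14.16 and 18.84 in double deficient arrays. The wild type arrays lay above all mutant arrays, and the Eed deficient arrays lay below all other arrays. Only 1 of the 9 mutant arrays was above its 40th percentile, so the mutant levels here are in the dim range. The log2 differences from wild type were -1.54 (SE 0.31, adjusted p = 0.02), -2.36 (SE 0.31, adjusted p = 0.000607) and -1.37 (SE 0.31, adjusted p = 0.00965). The Ring1B deficient call was lost without wild type replicate 1 or 2 (-1.28 and -1.57, adjusted p = 0.0809 and 0.0531) or Ring1B deficient replicate 1 or 2 (-1.48 and -1.44, adjusted p = 0.0701 and 0.0806). The lower signal in Eed deficient than in Ring1B deficient cells (-0.82, 95% interval -1.49 to -0.14) and the higher signal in double deficient than in Eed deficient cells (0.995, 95% interval 0.32 to 1.67) were not called (adjusted p = 0.279 and 0.177).

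The interaction of the second probe set was 2.54 (SE 0.44, adjusted p = 0.0246). It was not called without wild type replicate 1 or 2 (2.27 and 2.56, adjusted p = 0.0509 and 0.0523), Ring1B deficient replicate 1 or 2 (2.48 and 2.43, 0.0633 and 0.0650) or double deficient replicate 1, 2 or 3 (2.60, 2.59 and 2.43, 0.0639, 0.0502 and 0.0866).

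The other 3 Pax6 probe sets were dimmer. Probe set 1425960_s_at lay between 0.618 and 11.3 and above the 40th percentile on no array, with 6.64 ± 4.78 in wild type against 1.59 ± 1.03, 0.705 ± 0.0754 and 1.06 ± 0.206 in Ring1B deficient, Eed deficient and double deficient cells. It was called lower in Eed deficient (-0.94, adjusted p = 0.0461) and double deficient cells (-0.85, adjusted p = 0.0372). The Eed deficient call was not made with an added value of 20 (adjusted p = 0.0621), with no intensity trend (0.0627), or without 10 of the 12 arrays in turn, all but wild type replicate 2 and Ring1B deficient replicate 2 (adjusted p up to 0.153). The double deficient call was lost without wild type replicate 1 or 3 or any 1 of the 3 double deficient replicates (adjusted p up to 0.142). Without wild type replicate 3 the values were -0.65 and -0.56. The Ring1B deficient difference, -0.74 (adjusted p = 0.184), was called without wild type replicate 2 (-1.09, adjusted p = 0.0124). Probe sets 1437816_at and 1456342_at had no call and wild type means of 17.6 and 14.6. The 40th percentiles of the wild type arrays ran from 12.11 to 13.73. The 2 probe sets were above them on 3 and 2 of the 3 wild type arrays, and neither showed a called fall. For 1437816_at the Ring1B deficient arrays, at 11.78, 14.21 and 9.679, lay below the wild type arrays, at 15.75, 20.32 and 16.71 (log2 -0.42, adjusted p = 0.607). Its Eed deficient and double deficient arrays overlapped wild type, and all genotypes of 1456342_at overlapped, between 9.67 and 17.0.

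**Figure D3:**
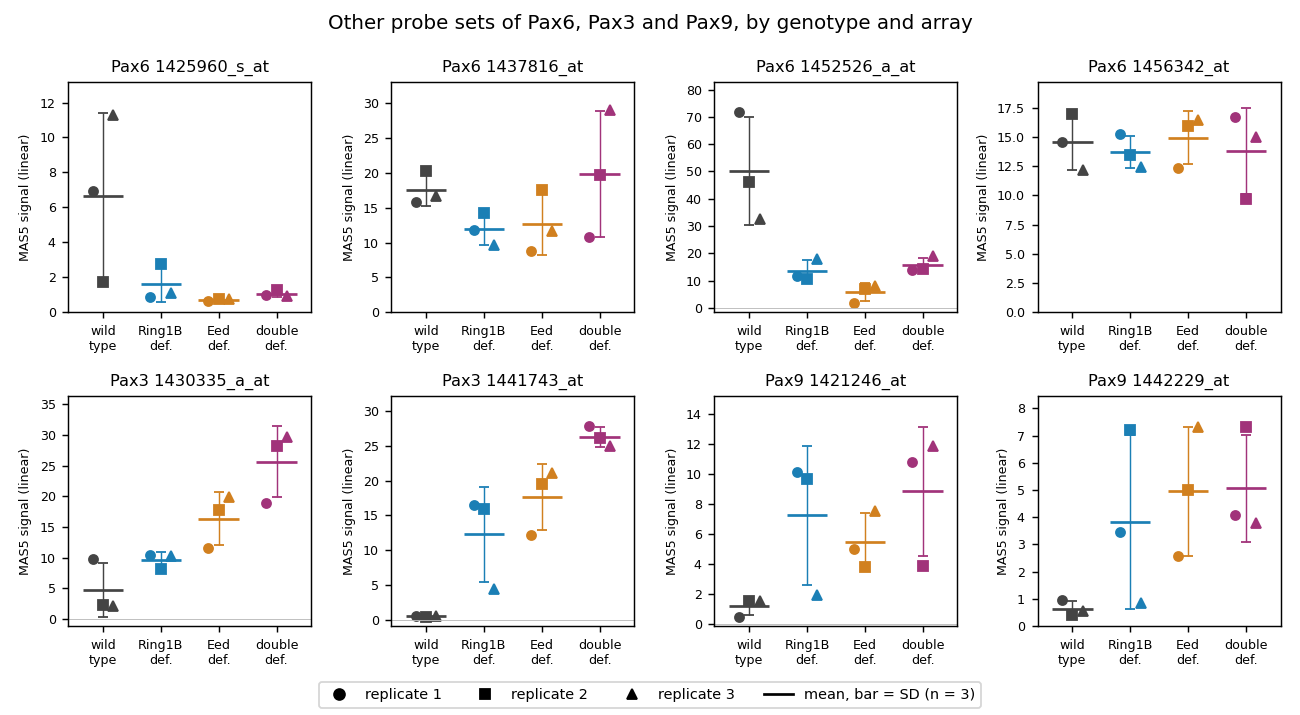
MAS5 signal (linear axis) of the other 4 Pax6, 2 Pax3 and 2 Pax9 probe sets on the 12 arrays, by genotype, with the mean and SD (n = 3). Pax6 1452526_a_at runs from 32.6 to 71.6 in wild type and from 1.9 to 18.8 in the mutants, Pax6 1456342_at overlaps in all genotypes, and Pax3 1441743_at lies between 0.455 and 0.603 in wild type against 4.44 to 27.8 in the mutants.

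Polycomb complexes are known to settle at promoters rich in CG dinucleotides, so the 300-base windows around annotated starts (250 bases before and 50 after) were read from RefSeq on GRCm38.p6 for the 3 genes with promoter entries that were called against wild type. The table holds 7 of the 8 Pax genes, Pax2 among them, with 10 windows, and Pax3 has no entry in it. A window held a median of 7 CG dinucleotides over the 32851 windows of the table, and 94.6% of them held at least 1. The motif CG reads the same on both strands and its matches cannot overlap. Pax6 has 2 windows, shown here because Pax6 alone fell, with CG in capitals.
Pax6 upstream start, chr2:105668646-105668945, plus strand: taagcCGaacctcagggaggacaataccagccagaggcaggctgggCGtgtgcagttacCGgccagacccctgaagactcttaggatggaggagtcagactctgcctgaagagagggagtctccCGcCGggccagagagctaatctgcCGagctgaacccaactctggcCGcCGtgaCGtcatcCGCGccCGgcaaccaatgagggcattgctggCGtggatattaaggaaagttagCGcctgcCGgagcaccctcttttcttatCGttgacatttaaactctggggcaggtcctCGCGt
Pax6 downstream start, chr2:105682213-105682512, plus strand: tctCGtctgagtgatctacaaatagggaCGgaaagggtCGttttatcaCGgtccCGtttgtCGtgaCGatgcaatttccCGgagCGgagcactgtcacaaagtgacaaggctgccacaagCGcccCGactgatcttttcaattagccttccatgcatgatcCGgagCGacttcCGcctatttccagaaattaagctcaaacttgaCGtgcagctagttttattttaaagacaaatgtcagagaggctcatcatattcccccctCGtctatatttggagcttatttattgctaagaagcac
They hold 18 and 16 CG dinucleotides, counts that 29.7% and 33.0% of all windows reach. The probe sets do not tell which start the measured transcripts came from.

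Pax6 shares its stretch of chromosome 2 with Elp4, a subunit of the Elongator complex that overlaps it in the annotation, and with the non-coding transcripts Pax6os1 and Paupar. Elp4 averaged 168 ± 31.9, 140 ± 44.2, 123 ± 25.7 and 112 ± 12 in wild type, Ring1B deficient, Eed deficient and double deficient cells (SD, n = 3) and was not called (log2 differences -0.28, -0.44 and -0.56, adjusted p = 0.682, 0.314 and 0.116). Pax6os1 and Paupar stayed at genotype means of 3.93 or less and were not called. Immp1l, a mitochondrial protease subunit on the other side, averaged 387 ± 82.3 in wild type and between 328 and 439 in the mutants, with no call.

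The neural context of Pax6 did not move as 1 block. Of 16 measured genes of the eye field, forebrain and neural progenitors, 3 were called higher and 1 lower in Ring1B deficient, 3 and 1 in Eed deficient and 5 and 1 in double deficient cells. Over all genes, each read by its brightest probe set, 2.60%, 6.45% and 13.7% were higher and 1.13%, 2.24% and 7.02% lower in these comparisons. The median log2 difference of the list was -0.03, 0.06 and 0.54, beside -0.01, 0.03 and 0.13 over all genes. Neurod1, a neuronal basic helix-loop-helix factor, was the gene that fell, from 468 ± 7.25 to 83.8 ± 9.97, 82.5 ± 21.9 and 96.2 ± 19.8 (log2 -2.42, -2.46 and -2.24, adjusted p = 1.51e-05, 8.52e-06 and 6.46e-06). Lhx2, an eye field homeobox gene, rose from 6.76 ± 4.16 to 33.0 ± 5.97, 38.3 ± 4.67 and 56.7 ± 8.84 (1.75, 1.94 and 2.45). Meis1 and Meis2, homeobox cofactors active in the developing eye, also rose in all 3 mutants, by 1.59, 1.35 and 1.85 and by 1.94, 1.33 and 2.04.

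Markers of neurons and neural progenitors were set beside the Pax6 values. The summed signal of the 9 measured markers ran from 2859 to 3113 in wild type, 2237 to 2448 in Ring1B deficient, 1808 to 2207 in Eed deficient and 1394 to 1870 in double deficient arrays. Most of that sum came from Stmn2, a neuronal tubulin-binding protein, with means of 2081, 1994, 1495 and 1070 over the genotypes in that order. Neurod1 was a large part of the rest in wild type cells only. Of the 9, Neurod1 was called lower in each mutant, and Stmn2 was called lower and Neurog2 higher in double deficient cells. The other 6 were not called and did not move one way. Sox1, a neural progenitor gene, had means of 49.8, 39.3, 21.6 and 22.0, and Tubb3 had 223, 79.9, 169 and 188. Nes, which encodes the progenitor filament nestin, had 63.2, 52.7, 90.3 and 109. Dcx, of migrating neurons, had 1.08, 7.1, 7.93 and 6.79. The part of such cells in the Pax6 difference was not tested. In bulk RNA, fewer cells of a type and less RNA per cell cannot be told apart. The ES cell markers Pou5f1, Nanog and Sox2 were bright in all genotypes, with genotype means from 1096 to 2876, but all 3 were called lower in double deficient cells (log2 -0.82, -0.80 and -0.71, adjusted p = 0.000555, 0.00125 and 0.0465) and Pou5f1 also in Eed deficient cells (-0.53, adjusted p = 0.0196). Of 8 such markers 0 were called in Ring1B deficient cells by limma (0 at an unadjusted p under 0.05), 1 was lower in Eed deficient cells and 4 were lower in double deficient cells. Over all genes 1.13%, 2.24% and 7.02% were lower in these comparisons. The summed signal of 8 ES cell markers ran from 16262 to 17365 in wild type, 15095 to 17237 in Ring1B deficient, 13049 to 16122 in Eed deficient and 11681 to 13575 in double deficient arrays.

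The genes closest to Pax6 over the 12 arrays were sought by the root mean square difference of log2 values after each gene's wild type mean was taken off. The nearest of 13973 genes were Ltb, which encodes the cytokine lymphotoxin beta, at 0.378, Slc27a2, a fatty acid transporter and acyl-CoA synthetase, at 0.381, Mirg, a non-coding transcript of the imprinted Dlk1-Meg3 region, at 0.388, and Gm9564 and Myo1f, both at 0.431. The median over genes was 1.59. Ltb went from 94.2 in wild type to 24.0, 19.3 and 18.6 in Ring1B deficient, Eed deficient and double deficient cells, and Slc27a2 from 198 to 40.2, 46.6 and 70.8. These genes were chosen for their likeness, so it is given as a description.

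**Figure D4:**
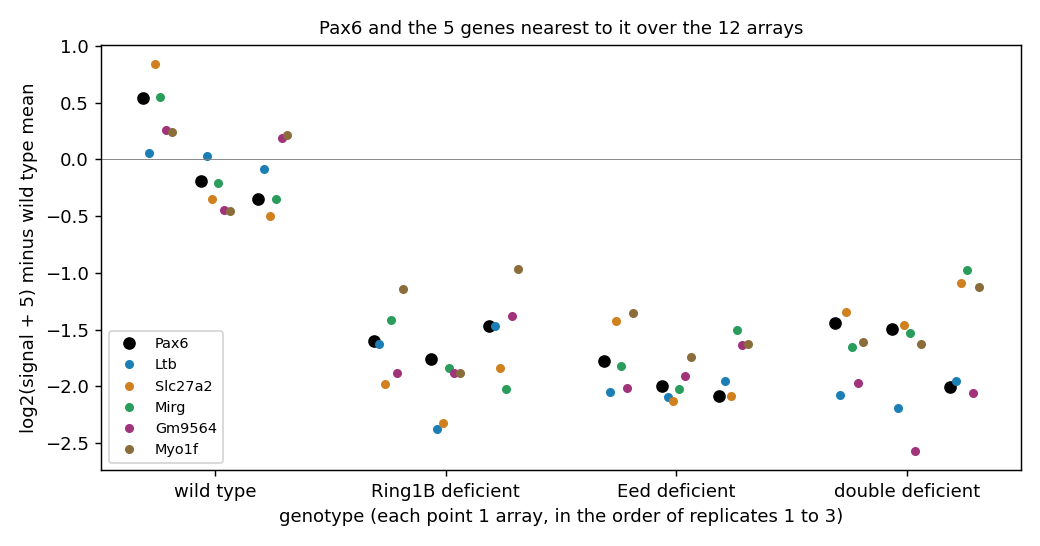
Log2 of signal plus 5 minus the wild type mean of each gene, for Pax6 (black) and the 5 genes nearest to it, on each of the 12 arrays. All 6 genes lie around 0 in wild type and below it on every mutant array, and Pax6 lies between -2.08 and -1.44 there.

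Of the genes of the endocrine pancreas, where Pax6 also acts, 0 of 9 were called in Ring1B deficient cells by limma (6 at an unadjusted p under 0.05), 1 was higher in Eed deficient and 5 were higher in double deficient cells, with 0 lower, where 6.45% and 13.7% of all genes were higher. The median log2 difference of the list was 0.58, 0.75 and 0.91 in the 3 mutants, beside -0.01, 0.03 and 0.13 over all genes. Nkx6-1 and Isl1, transcription factors of the endocrine lineage, had the largest called differences. Nkx6-1 averaged 8.28 in double deficient against 0.884 in wild type cells (log2 1.17), both in the dim range. Isl1 went from 15.9 to 33.7 in Eed deficient cells and 40.9 in double deficient cells (0.91 and 1.17). Nkx2-2 rose to 13.2 against 4.54 (0.96) and Pdx1 to 14.9 against 5.71 (0.91) in double deficient cells. These means are also low, where the 40th percentiles of the double deficient arrays ran from 14.94 to 19.07. Of the 9 genes 4 passed the dim filter.

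Pax3, which acts in muscle precursors and neural crest, was higher in double deficient cells by all 3 probe sets. Its brightest probe set, 1420389_at, read 9.116, 8.619 and 18.38 in wild type and 19.09, 20.93 and 13.96 in Ring1B deficient arrays. It read 21.30, 25.93 and 24.08 in Eed deficient and 34.11, 38.67 and 39.86 in double deficient arrays. Wild type and Ring1B deficient arrays overlapped, Eed deficient arrays lay above both, and double deficient arrays lay above all others. The log2 difference of double deficient from wild type cells was 1.36 (SE 0.24, adjusted p = 0.0019), called in all 8 settings and without each array in turn. The differences of Ring1B deficient and Eed deficient cells from wild type were 0.47 (adjusted p = 0.449) and 0.80 (adjusted p = 0.0719) and not called. The latter was called without wild type replicate 3, at 1.05 (adjusted p = 0.0239), with the filter on dim probe sets (adjusted p = 0.0385) and with 1 probe set per gene (adjusted p = 0.0345).

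The other Pax3 probe sets gave the same order of genotype means. Probe set 1441743_at read 0.6029, 0.4550 and 0.5477 in wild type and 16.47, 15.90 and 4.439 in Ring1B deficient arrays. It read 12.20, 19.46 and 21.13 in Eed deficient and 27.84, 26.09 and 25.01 in double deficient arrays. No wild type array overlapped a mutant array, and none was above its 40th percentile, so the wild type level here is in the dim range. The log2 differences from wild type were 1.55 (SE 0.30, adjusted p = 0.015), 2.01 (SE 0.30, adjusted p = 0.00142) and 2.5 (SE 0.30, adjusted p = 0.000117). The Ring1B deficient call was not made with an added value of 20 (0.63, adjusted p = 0.0522), without wild type replicate 1 or 3 (1.56 and 1.55, adjusted p = 0.0511 and 0.0503) or Ring1B deficient replicate 1 or 2 (1.34 and 1.36, adjusted p = 0.0651 and 0.0700). Probe set 1430335_a_at averaged 4.75 ± 4.38, 9.60 ± 1.31, 16.4 ± 4.31 and 25.6 ± 5.82, with called rises of 1.20 in Eed deficient (adjusted p = 0.0312) and 1.72 in double deficient cells (adjusted p = 0.00172). None of the wild type or Ring1B deficient arrays was above its 40th percentile for this probe set. The Eed deficient call of 1430335_a_at was lost without wild type replicate 2 or 3 (1.03 and 1.02, adjusted p = 0.101 and 0.123) or Eed deficient replicate 2 or 3 (1.14 and 1.08, adjusted p = 0.0969 and 0.120).

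Double deficient cells were also compared with each single mutant for Pax3. Against Ring1B deficient cells 2 of its 3 probe sets were called higher, 1420389_at by 0.90 (adjusted p = 0.0368) and 1430335_a_at by 1.05 (adjusted p = 0.0466), among 3 of 19 Pax probe sets where 5.83% of all probe sets were higher. The third gave 0.95 (adjusted p = 0.0696) and was called with an added value of 20 (0.54, adjusted p = 0.0413). Neither of the first 2 was called under quantile normalization or median centring (adjusted p from 0.110 to 0.130) or with an added value of 1 (adjusted p = 0.0513 and 0.0956). Leaving out 1 array ended the first call in 7 of 12 cases (values 0.77 to 0.99, adjusted p up to 0.134) and the second in 8 of 12 (0.95 to 1.22, up to 0.157). Those arrays were all 3 Ring1B deficient and all 3 double deficient replicates for both probe sets, Eed deficient replicate 3 for both, and Eed deficient replicate 2 for 1430335_a_at. Against Eed deficient cells the 3 probe sets gave 0.57, 0.52 and 0.49 and were not called (adjusted p = 0.312, 0.469 and 0.499). The interaction was not called for any of the 3 (0.10, -0.14 and -1.05, adjusted p = 0.937, 0.925 and 0.341).

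Among 17 measured genes of muscle precursors, dorsal neural tube and neural crest, 3 were higher in Ring1B deficient cells and 4 in each of Eed deficient and double deficient cells, with 0 lower, where 2.60%, 6.45% and 13.7% of all genes were higher. The median log2 difference was 0.00, 0.26 and 0.47, beside -0.01, 0.03 and 0.13 over all genes. The genes that rose were Zic1, a zinc finger factor of the dorsal neural tube, Msx1 and Msx2, homeobox genes of neural crest and limb, and Met, the receptor for hepatocyte growth factor that migrating muscle precursors need. Zic1 went from 9.78 ± 1.42 to 154 ± 28.9, 66.2 ± 8.34 and 184 ± 10.5. Msx2 reached 56.0 ± 16.5 and 88.1 ± 8.44 in Eed deficient and double deficient cells against 10.3 ± 7.67. Met reached 54.9 ± 14.1, 94.6 ± 15.2 and 95.9 ± 7.33 against 25.1 ± 9.86. Msx1 reached 42.9 ± 3.23, 48.7 ± 8.31 and 70.4 ± 11.6 against 17.3 ± 1.61.

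The genes nearest to Pax3 over the 12 arrays were Hpse, the heparan sulfate-cleaving enzyme heparanase, at a root mean square difference of 0.151, Il13ra1, a receptor chain for interleukin 13, at 0.161, Nid1, the basement membrane protein nidogen, at 0.175, Atp2c2, a calcium pump, at 0.193 and Tmem109 at 0.196, where the median over genes was 0.871. Nid1 went from 292 to 379, 559 and 711. Beside Pax3 in the genome, Epha4, an ephrin receptor used in axon guidance, rose from 117 ± 13.3 to 220 ± 48.5 in Ring1B deficient (log2 0.86, adjusted p = 0.0453) and 294 ± 47.7 in double deficient cells (1.28, adjusted p = 0.000997), and was 187 ± 45.6 in Eed deficient cells (0.63, adjusted p = 0.0975).

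Markers of 2 other cell types rose with the genotypes in which Pax3 was high. The summed signal of 10 primitive and visceral endoderm markers ran from 229.5 to 261.1 in wild type, 1922 to 2586 in Ring1B deficient, 1927 to 3731 in Eed deficient and 3746 to 3812 in double deficient arrays, and 9 of the 10 were called higher in each mutant. The summed signal of 9 fibroblast and feeder cell markers ran from 515.9 to 607.8, 441.1 to 656.9, 865.7 to 2350 and 2101 to 2635, with 0, 3 and 7 called higher and the highest Eed deficient value in replicate 3. Ring1B deficient cells had 0 fibroblast markers called by limma (1 at an unadjusted p under 0.05). Over all genes 2.60%, 6.45% and 13.7% were called higher in Ring1B deficient, Eed deficient and double deficient cells. No defining marker was listed at 0, and the endoderm marker Ttr was lowest, at 0.538 ± 0.113 in wild type cells. The part of such cells in the Pax3 difference was not tested.

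Pax7, the close relative of Pax3 that marks muscle stem cells, was in the dim range. Probe set 1452510_at lay between 6.28 and 19.3 and was above the 40th percentile on 2 arrays, both Ring1B deficient. Its means were 8.97 ± 1.14, 15.4 ± 4.93, 9.83 ± 0.375 and 9.65 ± 3.78, and the Ring1B deficient difference of 0.52 (95% interval -0.02 to 1.05, adjusted p = 0.403) was not called. In double deficient cells the difference was 0.04 with an interval from -0.50 to 0.58. The other Pax7 probe set stayed at or below 5.87 on all arrays.

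Pax1 and Pax9 are close relatives of each other that pattern the vertebral column and pharyngeal pouches. Pax1 probe set 1449359_at read 6.406, 3.957 and 6.732 in wild type and 15.22, 8.944 and 7.476 in Ring1B deficient arrays. It read 12.98, 5.120 and 12.42 in Eed deficient and 17.95, 22.46 and 23.34 in double deficient arrays. The double deficient arrays lay above all others, and the single mutants overlapped each other. The log2 difference of double deficient from wild type cells was 1.30 (SE 0.27, adjusted p = 0.00594), called in all 8 settings and without each array in turn. The dim filter and the 1 probe set per gene settings add no support, because the probe set passed their filter mainly by double deficient arrays. Of its 4 arrays above the 40th percentile 3 were double deficient, 1 was Ring1B deficient, and 0 were wild type or Eed deficient. The single mutants differed from wild type by 0.52 (adjusted p = 0.465) and 0.47 (adjusted p = 0.408), and double deficient from single mutant cells by 0.78 (adjusted p = 0.102) and 0.83 (adjusted p = 0.198), none of which was called. The second Pax1 probe set stayed between 0.594 and 2.49.

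The Pax1 and Pax9 windows are shown as those of genes that rose in double deficient cells, with CG in capitals.
Pax1, chr2:147364744-147365043, plus strand: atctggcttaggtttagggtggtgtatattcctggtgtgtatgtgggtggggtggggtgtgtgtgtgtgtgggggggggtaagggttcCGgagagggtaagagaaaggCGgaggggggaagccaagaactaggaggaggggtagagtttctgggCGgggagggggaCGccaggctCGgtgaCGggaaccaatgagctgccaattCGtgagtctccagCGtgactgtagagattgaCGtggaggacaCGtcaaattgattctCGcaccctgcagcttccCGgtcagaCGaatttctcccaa
Pax9, chr12:56695221-56695520, plus strand: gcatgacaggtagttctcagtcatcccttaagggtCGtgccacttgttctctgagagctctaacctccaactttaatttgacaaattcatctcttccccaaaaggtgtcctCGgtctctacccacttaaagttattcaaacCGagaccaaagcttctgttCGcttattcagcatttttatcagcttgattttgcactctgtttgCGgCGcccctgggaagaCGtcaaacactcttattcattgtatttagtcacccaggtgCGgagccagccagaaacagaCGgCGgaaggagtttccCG
They hold 13 and 11 CG dinucleotides, which 37.9% and 41.4% of all windows reach. The Pax5, Pax7 and Pax8 windows hold 23, 17 and 7.

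Pax9, needed for teeth and palate, had 3 probe sets of different brightness. The brightest, 1421247_at, read 23.40, 38.91 and 16.88 in wild type and 28.59, 17.78 and 29.08 in Ring1B deficient arrays. It read 21.01, 49.39 and 41.34 in Eed deficient and 46.80, 55.87 and 47.97 in double deficient arrays. The double deficient arrays lay above all wild type and Ring1B deficient arrays but overlapped the Eed deficient ones. The difference of double deficient from wild type cells was 0.87 (95% interval 0.20 to 1.54) and not called (adjusted p = 0.0759). It was called without wild type replicate 2 (1.14, adjusted p = 0.0306) and without Eed deficient replicate 1 (0.87, adjusted p = 0.0433), with the filter on dim probe sets (adjusted p = 0.0445) and with 1 probe set per gene (adjusted p = 0.0408).

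The other Pax9 probe sets were above the 40th percentile on no array. Probe set 1421246_at averaged 1.22 ± 0.618 in wild type and 8.86 ± 4.33 in double deficient cells, with Ring1B deficient cells at 7.27 ± 4.63 and Eed deficient cells at 5.48 ± 1.91. Its double deficient difference of 1.11 was called (SE 0.32, adjusted p = 0.0318), but not under quantile normalization (0.88, adjusted p = 0.0708) or median centring (0.86, adjusted p = 0.0634). It was also not called without wild type replicate 1, 2 or 3 (1.02, 1.15 and 1.15, adjusted p = 0.0954, 0.0607 and 0.0706) or double deficient replicate 1 or 3 (0.98 and 0.94, adjusted p = 0.104 and 0.124). Probe set 1442229_at averaged 0.633 ± 0.287 in wild type and from 3.83 to 5.06 in the mutants, and was not called (double deficient difference 0.82, adjusted p = 0.0514). It was called without Ring1B deficient replicate 2 or 3 (adjusted p = 0.0272 and 0.0312) or Eed deficient replicate 1 or 3 (adjusted p = 0.0469 and 0.0492), each with a difference of 0.82, and with an added value of 1 (1.86, adjusted p = 0.0274) or the replicate block (0.82, adjusted p = 0.0378).

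Of 11 measured genes of sclerotome, pharyngeal pouches and teeth, 4 were higher in Ring1B deficient cells, 6 in Eed deficient cells and 6 in double deficient cells, and 0 were lower, where 2.60%, 6.45% and 13.7% of all genes were higher. The median log2 difference was 0.91, 0.95 and 1.01, beside -0.01, 0.03 and 0.13 over all genes. Tbx1, a regulator of the pharyngeal arches, went from 3.70 ± 1.86 to 28.9 ± 6.37 in Eed deficient cells and 39.5 ± 5.94 in double deficient cells. Foxc2, a forkhead factor of the sclerotome, went from 4.55 ± 5.45 to 19.8 ± 2.23, 20.5 ± 3.94 and 31.3 ± 2.98. Bmp4, a signalling ligand of tooth and pouch formation, went from 60.5 ± 16.9 to 249 ± 86.7, 203 ± 53.8 and 199 ± 22.4. Beside Pax1 in the genome, Nkx2-2, a homeobox factor, rose in double deficient cells (0.96, adjusted p = 0.0181), and Nkx2-9 beside Pax9 was not called (0.08, adjusted p = 0.935). The Nkx2-2 signals of double deficient cells, up to 14.6, were in the dim range.

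The genes nearest to Pax1 over the 12 arrays were Mcur1, a regulator of mitochondrial calcium uptake, at 0.184, Adcy7, an adenylyl cyclase, at 0.204, Tmem164 at 0.213, Irx1, an Iroquois homeobox gene, at 0.228 and Mthfd2l, a mitochondrial folate enzyme, at 0.229, where the median over genes was 0.813. Irx1 went from 10.4 in wild type to 18.7, 19.0 and 26.3.

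Pax8, a regulator of thyroid and kidney, had low signals in all genotypes. Its brighter probe set, 1418208_at, averaged 22.0 ± 5.15, 24.6 ± 9.54, 21.6 ± 2.61 and 17.9 ± 6.66, and all genotypes overlapped. Its differences from wild type were 0.10 (95% interval -0.50 to 0.71), -0.005 (-0.61 to 0.60) and -0.26 (-0.87 to 0.35), so a rise or fall of 1 in log2 of signal plus 5 lay outside each interval. A change of 1 in log2 of the signal itself would be smaller on that scale, because of the added value. The other Pax8 probe set stayed at or below 7.59. The genes that work with Pax2 and Pax8 in kidney, ear and thyroid had 1 of 16 higher in Ring1B deficient cells, 2 in Eed deficient cells and 7 in double deficient cells, and 0 lower, where 2.60%, 6.45% and 13.7% of all genes were higher. The single mutant counts are close to those shares. The list's median log2 difference was 0.001, 0.11 and 0.75. Wnt4, a signal for kidney tubule formation, reached 106 ± 48.9 and 151 ± 42.7 in Eed deficient and double deficient cells against 20.4 ± 10.9. Lhx1, needed for the early kidney, went from 1.37 ± 0.221 to 16.7 ± 11.2, 21.7 ± 2.81 and 26.6 ± 6.36. En2, a midbrain homeobox gene that Pax2 activates, rose in double deficient cells to 126 ± 32.9 against 36.9 ± 8.93, and Gata3 to 13.3 against 0.950.

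Pax5, the regulator of B cell identity, had its brighter probe set 1454401_at at 11.10, 10.39 and 14.75 in wild type and 7.903, 7.486 and 2.262 in Ring1B deficient arrays. It read 8.602, 16.94 and 6.984 in Eed deficient and 17.75, 16.72 and 32.55 in double deficient arrays. The Ring1B deficient arrays lay below all wild type arrays but overlapped the Eed deficient ones, 2 of the 3 double deficient arrays lay above all arrays of the other genotypes, and 5 of the 12 arrays were above the 40th percentile. No difference from wild type was called (-0.69, -0.15 and 0.64, adjusted p = 0.372, 0.870 and 0.2). Double deficient cells were higher than Ring1B deficient cells by 1.33 (SE 0.32, adjusted p = 0.0210), a call lost without Ring1B deficient replicate 3 (1.06, adjusted p = 0.0925) or double deficient replicate 3 (1.08, adjusted p = 0.0984). The second Pax5 probe set lay between 1.61 and 11.3 and had no call. Of 12 measured B lineage genes 0 were called against wild type by limma in any mutant (1, 3 and 3 at an unadjusted p under 0.05). The shares of all genes were 2.60%, 6.45% and 13.7% higher and 1.13%, 2.24% and 7.02% lower in the 3 mutants. The summed signal of 6 B lineage markers, Cd79a and Vpreb1 among them, ran from 105.9 to 158.3 in wild type, 101.6 to 147.3 in Ring1B deficient, 65.75 to 99.97 in Eed deficient and 82.07 to 126.4 in double deficient arrays. The genes nearest to Pax5 included Speer3 at 0.288, Myod1, the muscle determination factor, at 0.290 and Pitpnm3 at 0.292, where the median over genes was 0.681.

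Eya and Dach proteins and their homeobox partners work with Pax factors in eye, ear, kidney and muscle. Of 11 measured genes, 1 was higher in Ring1B deficient and 1 in Eed deficient cells, and 3 were higher and 1 lower in double deficient cells. Over all genes 2.60%, 6.45% and 13.7% were higher and 7.02% lower in double deficient cells, and the counts in the list are small. The median log2 difference of the list was 0.126, 0.385 and 0.478, beside -0.007, 0.034 and 0.13 over all genes. Six3, a forebrain and eye field gene, went from 11.1 ± 5.55 to 27.1 ± 1.68, 26.6 ± 2.55 and 40 ± 3.64 (log2 1.05, 1.03 and 1.54, adjusted p = 0.0344, 0.0208 and 0.000768). Eya4 and Six2 rose in double deficient cells to 23.5 ± 6.97 and 73.0 ± 8.84 against 6.79 ± 2.47 and 33.7 ± 10. Six4 fell there to 122 ± 11.3 against 215 ± 29.6 (-0.79).

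The cofactors and corepressors of Pax proteins had 0 of 7 called by limma in each mutant (1, 0 and 1 at an unadjusted p under 0.05). The shares of all genes were 2.60%, 6.45% and 13.7% higher and 1.13%, 2.24% and 7.02% lower. Paxip1, which links Pax2 to histone H3 methylation, had genotype means from 138 to 157, and Paxbp1, which binds Pax3 and Pax7, from 309 to 401. Both were picked for their role after their values were seen. The nearest genes on each side of the 7 Pax genes, with those that overlap them, came to 17, of which 1 was called in Ring1B deficient cells, 0 in Eed deficient cells and 2 in double deficient cells, all higher (3, 4 and 6 at an unadjusted p under 0.05). With 2.60%, 6.45% and 13.7% of all genes higher, these counts are near the background.

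Among the pairs of mutant genotypes, 0 of 19 Pax probe sets were called between double deficient and Eed deficient cells (4 at an unadjusted p under 0.05), where 0.373% of all probe sets were higher and 0.249% lower. Between Eed deficient and Ring1B deficient cells 0 were called (1 at an unadjusted p under 0.05), where the shares were 1.03% and 0.333%. Between double deficient and Ring1B deficient cells 3 were higher and 0 lower, where 5.83% of all probe sets were higher and 2.36% lower. The Pax3 calls among them were not made under quantile normalization, median centring or an added value of 1. The comparisons with wild type share the wild type arrays, so their Pax values are not independent of each other.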

How the data were processed

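Messenger RNA was measured on 12 single-colour Affymetrix mouse expression arrays, 3 for each of 4 genotypes, grouped by sample title. The deposited values are linear signal intensities that the authors derived using the MAS5 algorithm, per the submitters' processing notes. The sources used here do not give its version or settings, and detection calls were not analysed here. The trimmed mean of every array, with 2% off each end, was 100, so the arrays had been scaled. Background correction was not repeated.

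Of 45101 probe sets 64 were controls. Of the other 45037, 34945 carried 1 gene symbol, 932 several and 9160 were not listed, and genes were named only from the first kind. Signals were raised by 5 and put on a log2 scale, where 5 is the 20th percentile of an array, taken as the median over arrays and rounded. A linear model of genotype was run over all 45037 probe sets with limma 3.58.1 (R 4.3.3) with an intensity trend, and tested on simulated data. No filter on dim values was used, so each member was tested.

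The brightest probe set by mean log2 stands for each gene of a list. Lists name up to 4 genes by called difference, and likeness is given for Pax6 and the members with the next largest ranges. Members, lists and the rule for naming genes were chosen with earlier results of these data known. The alternatives were quantile normalization, median centring, adding 1 or 20, a filter (at least 3 arrays above their 40th percentile), 1 probe set per gene after that filter, no intensity trend, the replicate number as a block, and leaving out each array. The number of arrays limits the precision.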

Additional observations from a re-analysis of the deposited data

Results flagged for a closer look

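Groups of 3 arrays were too small for a test of single outlying arrays. Pax6 differed between backgrounds by the interaction term of the limma fit. The difference between the effect of Ring1B loss in Eed deficient cells and its effect in wild type cells was 1.92 in log2 for probe set 1419271_at and 2.54 for probe set 1452526_a_at (adjusted p = 0.0246 for both, n = 3 arrays per genotype). Both probe sets read the same gene. The log2 difference of Ring1B deficient from wild type cells was -1.61 and -1.54 (3 of 3 arrays below all wild type arrays). Eed deficient cells were already low, with means of 30.9 and 5.67 against 139 and 50.1 in wild type. The double deficient differences from Eed deficient cells were 0.31 and 0.995, neither of them called. The interaction of the first probe set was not called under quantile normalization (adjusted p = 0.0595) or median centring (0.0555). Leaving out 1 array ended the call of the first in 6 of 12 cases and of the second in 7 of 12, with adjusted p up to 0.0774 and 0.0866.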

How the results depend on the processing

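The 133 Pax differences tested are 19 probe sets in 7 comparisons that share arrays, so they are not independent. Of all probe sets, 0.224% to 10.3% were called in 1 direction of a comparison. Of the 133 Pax differences 21 were called, and 10 of these were called under every alternative run for them. All 10 were against wild type. They were Pax6 1419271_at in all 3 mutants and 1452526_a_at in Eed deficient and double deficient cells. The others were all 3 Pax3 probe sets and Pax1 1449359_at in double deficient cells, and Pax3 1441743_at in Eed deficient cells. Some of these probe sets passed the dim filter mainly or only through genotypes where they are high, so those runs are no separate support. They were Pax1 1449359_at, Pax3 1430335_a_at and 1441743_at, by mutant arrays, and Pax6 1452526_a_at, mainly by wild type arrays. No difference that was called changed sign under an alternative, and 5 differences not called at first were called under some alternative. Counts of called Pax probe sets moved by more than 1.5 times as follows. With an added value of 20, the 1 higher in Ring1B deficient cells became 0. Double deficient against Ring1B deficient cells had 3 higher, which became 1 under quantile normalization, median centring and an added value of 1. The 2 positive interactions became 1 under quantile normalization and median centring. With 1 probe set per gene, which leaves fewer probe sets to count, there were 0 higher and 1 lower in Ring1B deficient, 1 and 1 in Eed deficient and 3 and 1 in double deficient cells, and 1 positive interaction. Smaller moves were 3 to 2 lower in Eed deficient cells with an added value of 20, no intensity trend or the dim filter, 2 to 3 higher there with the dim filter, 5 to 4 higher in double deficient cells under quantile normalization and median centring and to 6 with an added value of 1, 3 to 2 lower there with the dim filter, and 3 higher in double deficient than in Ring1B deficient cells to 4 with an added value of 20 and 2 with 1 probe set per gene. Leaving out 1 array gave 0 to 1 higher and 1 to 2 lower in Ring1B deficient, 1 to 2 higher and 2 to 3 lower in Eed deficient and 4 to 7 higher and 2 to 3 lower in double deficient cells, 0 to 3 higher in double deficient than in Ring1B deficient cells, and 0 to 2 positive interactions. Same-numbered arrays of different genotypes had deviations that correlated by -0.061 to 0.552 (median 0.228, against -0.15 for different numbers), over 0.1 in 14 of 18 pairs. The labels do not say what a number marks, and since not every pair was over 0.1 the block was kept as an alternative, although the values hint at pairing for replicates 1 and 2. Not every array correlated best with its own number: wild type replicate 3 gave 0.111 with double deficient replicate 2 and -0.061 with replicate 3. The block raised the calls over all probe sets from 732 higher and 357 lower to 1501 and 1013 in Ring1B deficient cells, from 1924 and 751 to 3106 and 1957 in Eed deficient cells, and from 4644 and 2275 to 6055 and 3789 in double deficient cells. With the replicate block 6 Pax probe sets were higher in double deficient cells instead of 5, the sixth being Pax9 1442229_at (adjusted p = 0.0378), and no other Pax call changed. Signals below the 40th percentile limit what could be detected for Pax1, Pax5, Pax7 and most Pax9 values. The same holds for the wild type levels of Pax3 1430335_a_at and 1441743_at.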
